A study of Mus musculus with 5 samples.

Results

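The HoxC and HoxD gene clusters were examined as 2 windows of the mm9 mouse genome, chr15:102740000-102875000 for HoxC and chr2:74490000-74615000 for HoxD. The windows span 135 and 125 kb and were set by coordinates, with earlier results of these data known. Of 1170580 autosomal CpGs present in any deposited table, 1857 lay in the windows, 703 in HoxC and 1154 in HoxD. Of the 1029293 autosomal CpGs covered in all 5 libraries, 1667 were members, 618 in HoxC and 1049 in HoxD, and all values below refer to these. That is 4.58 covered CpGs per kb in HoxC and 8.39 in HoxD.

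The assay was enhanced reduced representation bisulfite sequencing (ERRBS) of DNA from mouse bone marrow LSK cells, the sorted Lin- Sca1+ cKit+ fraction that holds blood stem cells and multipotent progenitors. There were 2 libraries from germ line targeted mice and 3 from wild-type mice, all of strain C57BL/6. The titles of the targeted libraries read KO, while their genotype label is heterozygous (+/-), so the number of targeted alleles is not stated here. No age is given for these libraries, and the series' design text names 12 months for its transcriptome samples only. The labels do not tie the libraries to individual animals; a p-value here reflects the spread from library to library, which may be technical. The files hold no expression values, so the identity of the sorted cells could not be checked against marker genes, and whether the Hox genes were transcribed was not measured.

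Hox genes encode homeodomain transcription factors that set position along the body axis, and they lie in clusters whose gene order follows the order of the body regions they pattern. In the HoxD cluster, Hoxd1, Hoxd3 and Hoxd4 belong to the end used first and towards the head. Hoxd9 to Hoxd13 belong to the end used last and towards the tail, where Hoxd13 also patterns the digits. HoxC runs in the same way from Hoxc4 to Hoxc13, and Hoxc13 is known for its role in hair and nails. Blood stem cells are known mainly for their use of HoxA and HoxB genes. Where Hox genes are silent, their CpG islands are usually held by Polycomb complexes and stay without dense DNA methylation.

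Along the coordinates of each window, the RefSeq gene order was Hoxc13, Hoxc12, Hoxc11, Hoxc10, Hoxc9, Hoxc8, Hoxc6, Hoxc5 and Hoxc4 on chromosome 15. On chromosome 2 it was Hoxd13, Hoxd12, Hoxd11, Hoxd10, Hoxd9, Hoxd8, Hoxd3, Hoxd4 and Hoxd1, because the annotated start of Hoxd3 lies before that of Hoxd4. RefSeq promoter sequences, from 250 bases before to 50 after the gene start, were at hand for 10 of the 18 member genes. A promoter was given a place in the mm9 numbering only where the spacing of its covered CpGs matched the CG positions of its sequence at a single place in the window. This placed Hoxd12, Hoxd11, Hoxd10, Hoxd9 and Hoxd1. Hoxd13, Hoxd3 and Hoxd4 were placed by a relaxed match of at least 4 CpGs with the right distance to the other starts, chosen after the first matches were seen, so their places are less certain. Hoxd8 and Hoxc4 had no single match, so HoxC is described by position alone.

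The promoter sequences below are RefSeq sequences of build GRCm38.p6, plus strand, 5′ to 3′, and the capitals mark the CpGs covered in all 5 libraries. They are shown because they span the range of promoter methylation found in HoxD, and because the fragments sampled start at CCGG. The first is the Hoxd4 promoter, with the highest level and few CpGs, placed at chr2:74559785-74560084. The Hoxd10 promoter follows, at chr2:74529698-74529997, with an intermediate level and 10 CCGG sites.
Hoxd4: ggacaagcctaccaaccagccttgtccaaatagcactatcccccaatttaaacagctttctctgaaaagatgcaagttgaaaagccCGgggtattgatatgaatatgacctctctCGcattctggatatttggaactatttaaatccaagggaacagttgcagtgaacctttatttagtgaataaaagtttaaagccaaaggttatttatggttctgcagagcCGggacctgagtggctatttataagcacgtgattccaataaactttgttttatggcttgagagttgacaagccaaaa
Hoxd10: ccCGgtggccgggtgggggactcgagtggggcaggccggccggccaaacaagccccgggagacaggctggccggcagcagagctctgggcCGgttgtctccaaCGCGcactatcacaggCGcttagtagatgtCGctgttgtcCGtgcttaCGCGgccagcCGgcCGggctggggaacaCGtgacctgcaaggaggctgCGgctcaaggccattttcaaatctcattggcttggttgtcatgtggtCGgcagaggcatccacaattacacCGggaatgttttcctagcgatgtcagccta
The Hoxd11 promoter, at chr2:74520130-74520429, and the Hoxd1 promoter, at chr2:74600787-74601086, are CpG-rich and low. The Hoxd3 promoter, at chr2:74549800-74550099, had the lowest level, and all its covered CpGs lie after the gene start.
Hoxd11: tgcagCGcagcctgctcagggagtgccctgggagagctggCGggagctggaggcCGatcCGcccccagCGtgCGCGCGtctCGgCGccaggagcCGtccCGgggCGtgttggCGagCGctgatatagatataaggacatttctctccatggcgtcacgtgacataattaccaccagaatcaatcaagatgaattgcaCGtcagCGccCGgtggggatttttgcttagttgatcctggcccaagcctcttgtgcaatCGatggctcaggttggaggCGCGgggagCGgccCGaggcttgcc
Hoxd1: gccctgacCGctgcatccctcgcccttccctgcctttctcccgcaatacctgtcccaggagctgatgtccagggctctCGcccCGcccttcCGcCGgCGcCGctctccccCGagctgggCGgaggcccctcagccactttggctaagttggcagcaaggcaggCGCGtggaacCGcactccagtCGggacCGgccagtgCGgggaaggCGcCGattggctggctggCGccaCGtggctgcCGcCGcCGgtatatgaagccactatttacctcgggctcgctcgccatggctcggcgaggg
Hoxd3: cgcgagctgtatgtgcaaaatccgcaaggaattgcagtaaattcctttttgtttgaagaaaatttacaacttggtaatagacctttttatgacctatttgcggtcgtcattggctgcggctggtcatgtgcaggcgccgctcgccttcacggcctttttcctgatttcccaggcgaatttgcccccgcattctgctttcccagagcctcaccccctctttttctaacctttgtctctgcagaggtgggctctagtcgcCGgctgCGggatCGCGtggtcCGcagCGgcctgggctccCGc
CCGG, the MspI site, which reads the same on both strands, occurs in 52.8% of 32851 RefSeq promoters of the same length. It occurs in all 5 sequences printed here, with 2 sites in the Hoxd4 and Hoxd11 promoters, 3 in the Hoxd1 promoter and 1 in the Hoxd3 promoter. Promoters could be placed only through covered CpGs, which lie near CCGG, so its presence in these sequences follows largely from their choice.

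Targeted library 1 stood apart from the other 4 across the genome. On autosomal CpGs outside the windows with a mean level of 20 to 80%, it lay 6.51 percentage points above the wild-type mean, against 0.708 points for targeted library 2. Its mean level over the rest of the autosomes was 35.1%, against 34.4% in targeted library 2 and 34.3, 34.2 and 34.2% in the wild-type libraries. Median coverage of a member CpG was 85 and 124 reads in the targeted libraries, against 120, 122 and 117 reads in wild type. The group differences of the mean levels, and of the 2 promoters whose groups did not overlap, are therefore also given without targeted library 1.

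Both clusters were mostly unmethylated in every library. HoxC had a mean CpG level of 8.17 and 7.11% in the targeted libraries, against 7.29, 7.21 and 7.17% in the wild-type libraries. HoxD had 7.01 and 6.39% in the targeted libraries, against 6.36, 6.28 and 6.09% in the wild-type libraries. By the mean of the 5 libraries, 552 of the 618 HoxC CpGs and 997 of the 1049 HoxD CpGs lay under 20%. Per library, 90.8 to 93.0% of member CpGs lay under 20%, against 60.6 to 61.3% on the rest of the autosomes. The median level was nevertheless higher in the windows, at 2.65 to 3.37%, against 0.971 to 1.18% on the rest. The member CpGs at 20% or more differed in kind between the clusters. HoxC had 66 CpGs at 20 to 80% and none above 80%, in any single library either, with a highest mean of 71.0%. HoxD had 40 CpGs at 20 to 80% and 12 above 80%, with a highest mean of 94.3%.

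HoxC lay above HoxD by 0.964 ± 0.169 points (SD, n = 5 libraries), and the difference was positive in all 5 libraries, at 0.716 to 1.16 points. An exact sign-flip permutation test gave p = 0.063 (two-sided), which is the smallest p that 5 within-library differences allow. The same CpGs were read in each library, so this p covers only whether the difference repeats from library to library. The order of the clusters depended on the weighting: when every 1000 bp tile counted the same, HoxC minus HoxD was -2.57 points. HoxD held many low CpGs in tiles with many covered CpGs, and a few tiles with few covered CpGs at high levels.

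**Figure D1:**
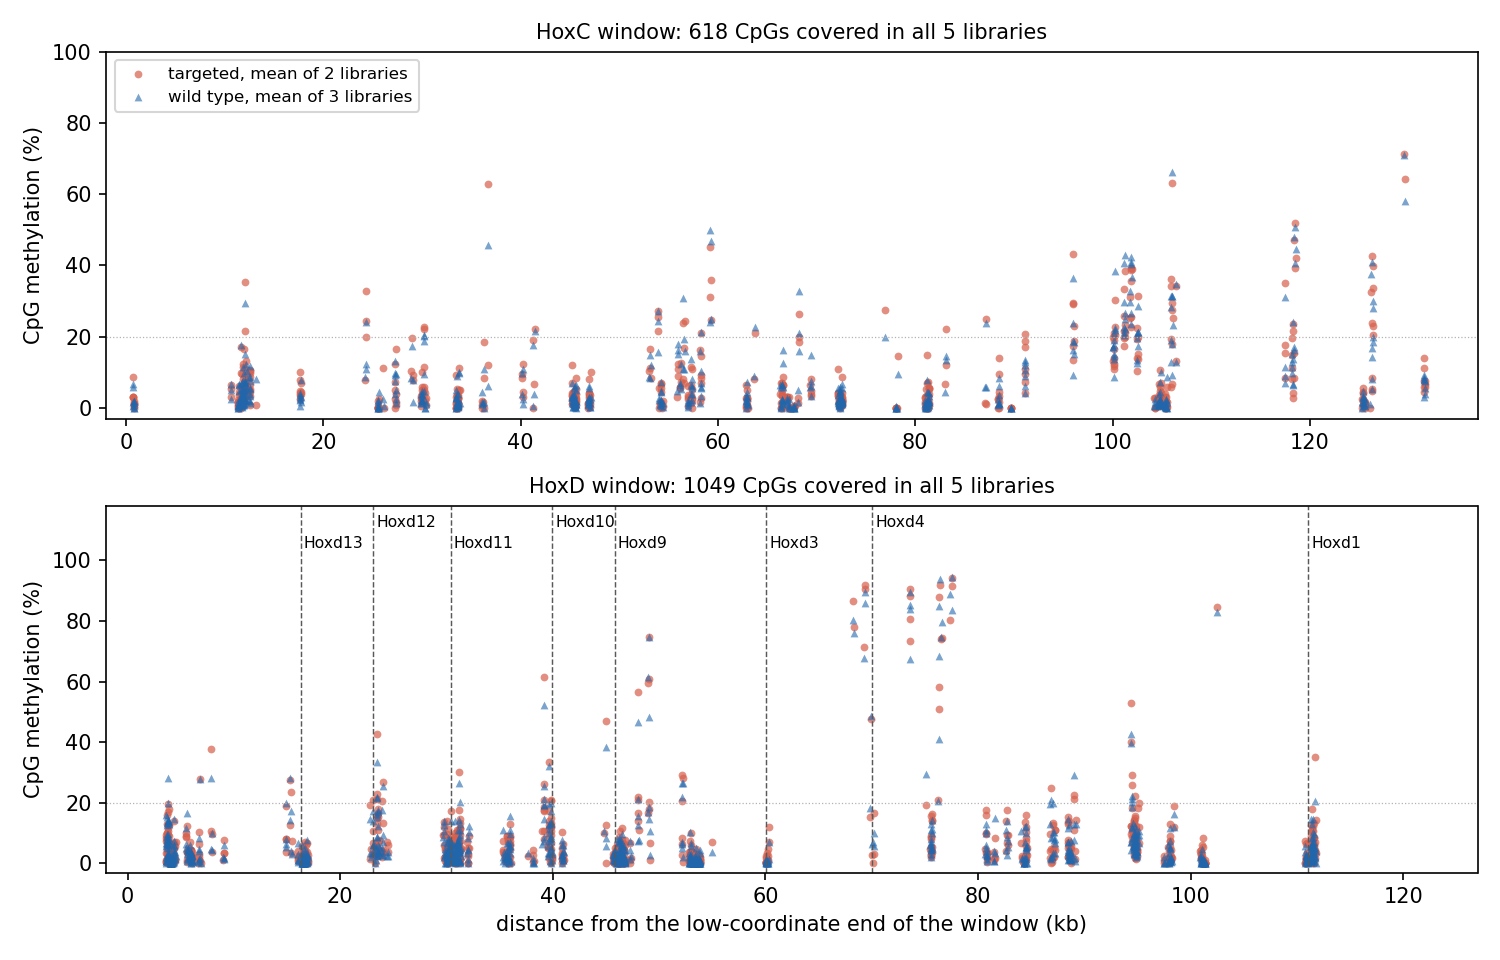
Methylation of each CpG covered in all 5 libraries, in percent, against its distance in kb from the low-coordinate end of the HoxC window (upper panel) and the HoxD window (lower panel). Circles are the mean of the 2 targeted libraries, triangles the mean of the 3 wild-type libraries, dotted lines mark 20%, and dashed lines mark the starts of the 8 HoxD genes that were placed, of which Hoxd13, Hoxd3 and Hoxd4 by the relaxed match. In HoxC no CpG reaches 80% in either group, while HoxD has a group of CpGs above 80% around and beyond the Hoxd4 start.

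Methylation was not spread evenly along the clusters. HoxC, cut into 5 equal segments of 27 kb from the Hoxc13 side to the Hoxc4 side, had mean levels of 4.64, 4.92, 5.35, 11.2 and 15.5% over the 5 libraries. The higher levels on the Hoxc4 side were present in each library. In the last segment the level was 17.2 and 14.7% in the targeted libraries, against 14.2, 15.1 and 16.2% in the wild-type libraries. That segment holds 53 CpGs, 13 of them at 20 to 80%, and the segment before it holds 149, of which 35 were at 20 to 80%. HoxD, in segments of 25 kb from the Hoxd13 side to the Hoxd1 side, had means of 4.97, 5.65, 7.02, 10.2 and 4.15%. Its level thus peaked inside the cluster and was lowest at the Hoxd1 end, while in HoxC the peak lay at the end of the window.

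**Figure D2:**
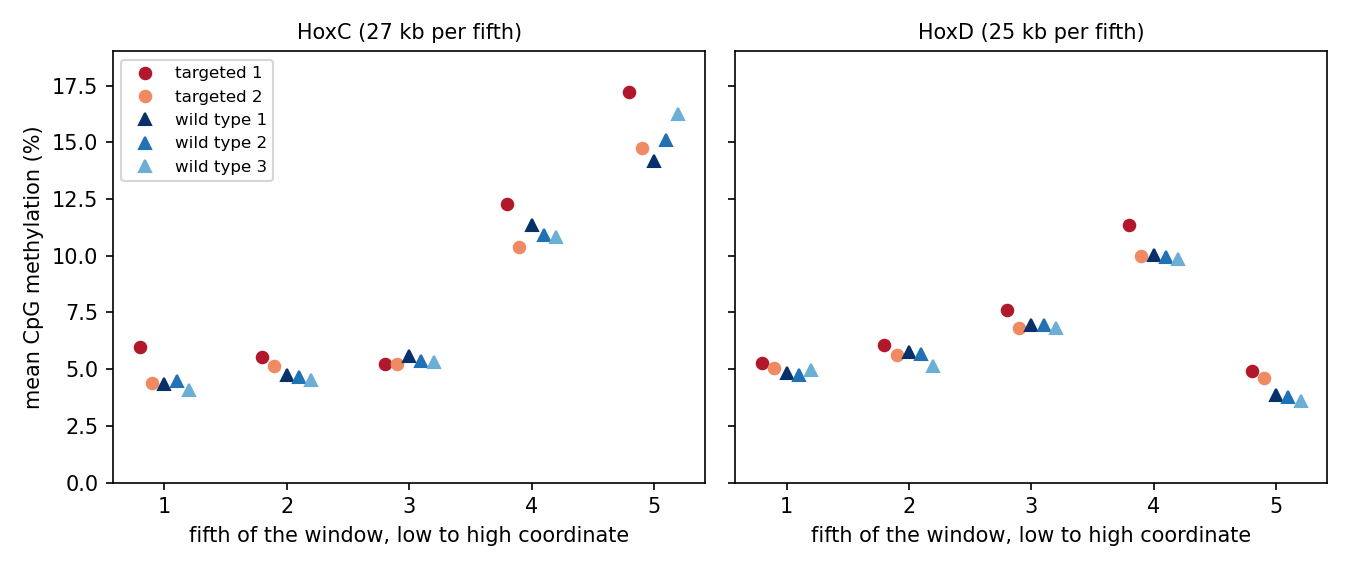
Mean CpG methylation, in percent, in 5 equal segments of each window, from low to high coordinate, which runs from the Hoxc13 or Hoxd13 side on the left to the Hoxc4 or Hoxd1 side on the right. Circles are the 2 targeted libraries and triangles the 3 wild-type libraries. In each of the 5 libraries the last HoxC segment and the HoxD segment before the last are the highest of their window, with means over the libraries of 15.5 and 10.2%.

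The promoters of the tail-end HoxD genes were low, with Hoxd12 and Hoxd10 the higher ones. Hoxd13, the digit regulator, had 1.41 and 2.15% in the targeted libraries, against 1.02, 1.19 and 2.21% in the wild-type libraries, over 4 CpGs. These 4, of 37 in the sequence, lie 220 to 243 bases before the start, and the rest of that promoter was not covered in all 5 libraries. Hoxd12, a limb and digit gene, had 9.98 and 6.90% in the targeted libraries, against 7.54, 9.84 and 8.20% in the wild-type libraries, over 5 CpGs. Its level came mainly from the CpGs 10 and 46 bases after the start, whose means over the 5 libraries were 16.7 and 14.6%. In both promoters the groups overlapped. Hoxd11, which acts in the forelimb and the lower spine, had 4.49 and 3.92% in the targeted libraries, against 4.0, 4.35 and 3.46% in the wild-type libraries, over 23 CpGs. None of its CpGs had a mean above 9.60%.

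Hoxd10, which acts in the hind limb and its motor neurons, was the one tail-end promoter whose groups did not overlap. Over 15 CpGs it had 9.26 and 8.35% in the targeted libraries, against 8.27, 7.75 and 8.29% in the wild-type libraries. The means were 8.80 ± 0.640% in the targeted libraries (SD, n = 2) and 8.10 ± 0.305% in the wild-type libraries (SD, n = 3), with an exact permutation p of 0.1 (two-sided), the smallest that 2 against 3 libraries allow, and 8 promoters were compared. Without targeted library 1 the difference of 0.699 points was 0.246 points. In the Hoxd10 sequence above, the highest CpGs were those 117 and 131 bases before the start, at 20.3 and 18.7% over the 5 libraries. Hoxd9, which acts with its HoxA and HoxB counterparts in the limb and the mammary gland, had 1.23 and 2.44% in the targeted libraries, against 2.45, 3.0 and 2.40% in the wild-type libraries, over 13 CpGs.

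At the head-side end, the promoters of Hoxd3 and Hoxd1 were low and that of Hoxd4 was partly methylated. Hoxd3, known for its role in forming the upper neck vertebrae, had 0.661 and 0.849% in the targeted libraries, against 0.373, 0.318 and 1.42% in the wild-type libraries, over 7 CpGs. Hoxd1, which in mice acts in pain-sensing neurons, had 2.43 and 2.05% in the targeted libraries, against 1.77, 1.23 and 1.91% in the wild-type libraries, over 22 CpGs. The targeted libraries both lay above the wild-type ones in Hoxd1, with an exact permutation p of 0.2 (two-sided). Its difference was 0.599 points, and 0.412 points without targeted library 1. Hoxd4, which patterns the neck vertebrae, had 22.9 and 21.0% in the targeted libraries, against 32.5, 22.1 and 18.9% in the wild-type libraries, over 3 CpGs. The 3 CpGs in capitals in its sequence differed: 17.1% at 164 bases before the start, 48.3% at 135 bases before and 5.06% at 27 bases before, as means of the 5 libraries. Wild-type library 1 was the highest of the 5 at Hoxd4, and the groups overlapped.

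**Figure D3:**
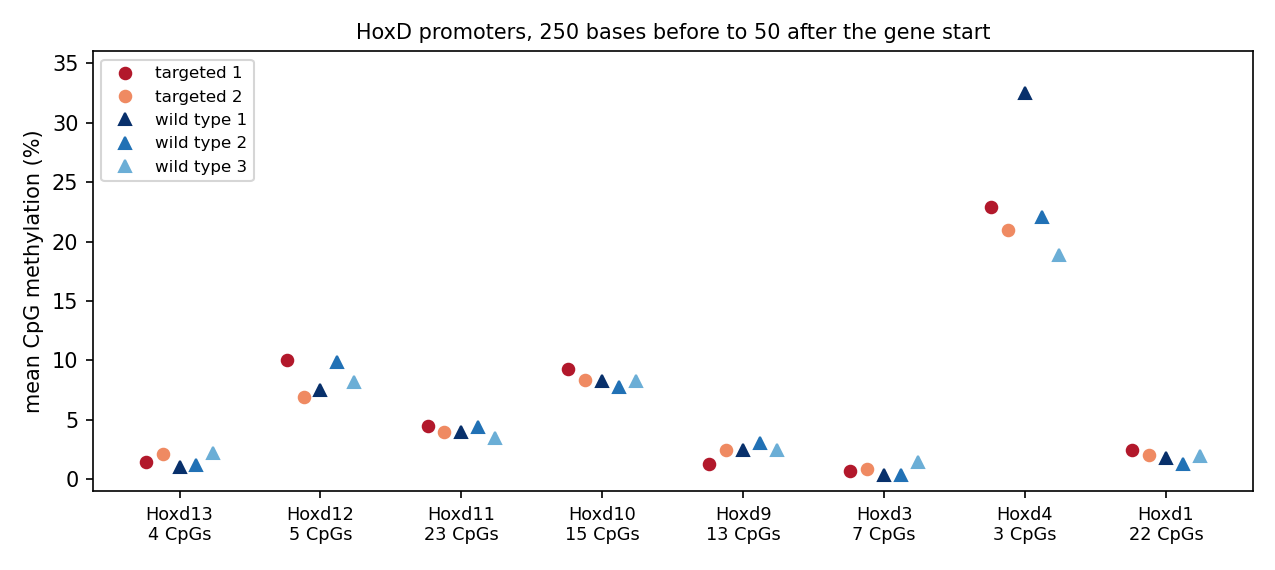
Mean CpG methylation, in percent, of the 8 HoxD promoters that were placed, in the order of their starts along the chromosome, with the number of covered CpGs under each name. Circles are the 2 targeted libraries and triangles the 3 wild-type libraries. The Hoxd4 promoter spans 18.9 to 32.5%, and each of the other 7 promoters stays under 10% in every library.

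The methylated CpGs of HoxD were concentrated in a single stretch, picked out after the values were seen and so given as a description. It runs over 42 CpGs and 9.302 kb, chr2:74558252-74567553, and begins 8202 bases after the Hoxd3 start, holds the Hoxd4 promoter and ends 33484 bases before the Hoxd1 start. The mean level there was 41.7 and 39.3% in the targeted libraries, against 42.3, 39.9 and 39.0% in the wild-type libraries. Within it, 17 CpGs were at 50% or more and 21 were under 20%. Of the low ones, 16 formed a run of 142 bp from chr2:74565536 with a mean of 7.42%. Outside the stretch, 976 of 1007 HoxD CpGs lay under 20% and 6 reached 50%. All 12 HoxD CpGs above 80% lay between the Hoxd3 and Hoxd1 starts.

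The HoxD tiles with the highest levels belonged to this stretch. Tile levels are given over pooled reads of the CpGs in 1000 bp. The tile chr2:74567001-74568000 had 89.8 and 88.9% in the targeted libraries, against 90.5, 91.9 and 85.4% in the wild-type libraries, from 3 CpGs and 37 to 89 reads per library. The tile chr2:74563001-74564000 had 84.6 and 83.9% in the targeted libraries, against 81.4, 84.4 and 82.2% in the wild-type libraries. The tile chr2:74559001-74560000 holds only part of the Hoxd4 promoter. It had 78.3 and 67.1% in the targeted libraries, against 70.3, 66.9 and 63.1% in the wild-type libraries. Its CpGs at chr2:74559311, 74559374 and 74559384, all before the promoter, had means of 69.1, 87.7 and 90.4% over the 5 libraries. The next tile, chr2:74560001-74561000, holds the rest of that promoter and the Hoxd4 start. It had 8.33 and 3.23% in the targeted libraries, against 9.43, 6.32 and 7.23% in the wild-type libraries. In each of these tiles the groups overlapped.

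HoxC had no comparable stretch, and its most methylated tiles stayed at intermediate levels. Only 5 of its 50 tiles reached 20%, from chr15:102799001 to chr15:102867000. The highest, chr15:102799001-102800000, had 32.1 and 38.3% in the targeted libraries, against 39.8, 36.6 and 33.4% in the wild-type libraries, from 4 CpGs. Next came chr15:102841001-102842000, with 32.3 and 26.9% in the targeted libraries, against 32.5, 29.9 and 33.1% in the wild-type libraries, over 17 CpGs. The tile chr15:102846001-102847000 had 31.2 and 26.7% in the targeted libraries, against 31.3, 28.3 and 32.4% in the wild-type libraries. In each of these 3 tiles 1 targeted library was the lowest of the 5, and the other lay inside the wild-type range. The highest single HoxC CpG means were 71.0% at chr15:102869575 and 65.0% at chr15:102846052.

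Where both DNA strands of a CpG were read in all 5 libraries, the strands mostly gave like values. There were 193 such CpGs in HoxC and 280 in HoxD, with a median difference between strands of 0.998 and 0.980 points. Among the 13 such CpGs of each cluster with a mean of at least 20%, the median difference was 2.34 points in HoxC and 2.85 in HoxD. Of these, the CpG whose strands differed most in HoxC was chr15:102846466. Its reverse strand read 49.6 and 46.0% in the targeted libraries, against 56.5, 51.2 and 41.4% in the wild-type libraries. Its forward strand had 0 methylated reads among 224 over the 5 libraries, which allows a level of up to 1.34%.

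Most covered CpGs of both clusters lay in runs of unmethylated CpGs. A run was taken as at least 10 consecutive CpGs, each under 20% in every library, with gaps of at most 2000 bp. HoxC had 18 runs with 406 CpGs, 65.7% of its CpGs, and HoxD had 24 runs with 821 CpGs, 78.3%. Runs were sought in the windows only, so no share for the rest of the autosomes is given. With each CpG required to be under 10%, the runs held 39.5% of the HoxC and 41.6% of the HoxD CpGs, and the longest HoxD run was 1344 bp. At the 20% limit, the longest in HoxC spanned 2086 bp from chr15:102820944, followed by runs of 1902 bp from chr15:102785196 and 1896 bp from chr15:102794003. These lengths bridge wide gaps without covered CpGs. With gaps of at most 1000 bp, the runs from these starts spanned 462, 459 and 396 bp. The longest HoxC run was then 1659 bp from chr15:102844245. In HoxD the longest spanned 3035 bp from chr2:74525985, between the Hoxd11 and Hoxd10 starts, but held only 11 CpGs. The next, 2701 bp from chr2:74542243, held 109 CpGs at a mean of 1.01%, and with gaps of at most 1000 bp it held 108 CpGs in 1596 bp. The third spanned 2362 bp from chr2:74535652, held 106 CpGs at 2.61% and contains the Hoxd9 start. It was the longest HoxD run with gaps of at most 1000 bp.

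Compared with other autosomal tiles of the same number of covered CpGs, the cluster tiles with few covered CpGs were low. Tiles of at least 3 CpGs were classed by covered CpGs, and each tile's level was the mean of its CpGs. Covered CpGs are only part of those in the sequence, as with 5 of 13 in the Hoxd12 promoter. The CpG density of the sequence itself was therefore not matched. Among tiles of 3 to 9 CpGs, the median over the 5 libraries was 9.36% for 53 tiles in the windows, against 92.9% for the 69223 tiles of the rest of the autosomes. With classes weighted as in the windows, the mean in the windows was 11.4 and 10.3% in the targeted libraries, against 10.4, 10.4 and 10.2% in wild type. On the rest of the autosomes the mean with the same class weights was 48.2 and 47.3% in the targeted libraries, against 47.2, 47.0 and 47.0% in wild type. Windows minus rest averaged -36.8 points and was negative in 5 of 5 libraries, with an exact sign-flip permutation p of 0.063 (two-sided), the smallest possible. The same loci were read in each library, so this p covers only whether the difference repeats from library to library. It does not test whether the windows differ from other loci by more than loci differ among themselves.

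The medians of the tiles with 10 or more covered CpGs had the opposite order, at low levels. This pattern was noticed in the data and is given without a test. Among tiles of 10 to 19 CpGs the median was 4.36% for 22 tiles in the windows, against 2.96% for 9257 tiles elsewhere. Among tiles of 20 to 29 CpGs the median was 3.84% for 11 tiles in the windows, against 0.245% for 4176 tiles elsewhere. For 30 CpGs or more it was 3.62% for 16 tiles, against 0.154% for 7915 tiles. The means of the 20 to 29 class kept the first order, at 3.75% in the windows, against 6.37% elsewhere, while those of the class of 30 or more were 4.82% in the windows, against 2.07% elsewhere. Of tiles with at least 20 CpGs, 8 of 8 in HoxC and 17 of 19 in HoxD exceeded 1%, against 24.4% of 12091 tiles on the rest of the autosomes. CpGs under 20% in every library, in tiles of 10 or more CpGs, were also higher in the clusters. The 388 such CpGs of HoxC had 3.31 and 2.89% in the targeted libraries, against 2.86, 2.76 and 2.69% in the wild-type libraries. The 850 of HoxD had 3.85 and 3.42% in the targeted libraries, against 3.43, 3.23 and 3.16% in the wild-type libraries. The 564802 on the rest of the autosomes had 0.737 and 0.641% in the targeted libraries, against 0.626, 0.607 and 0.590% in the wild-type libraries. The clusters were thus higher than the rest in each library, whichever its group.

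**Figure D4:**
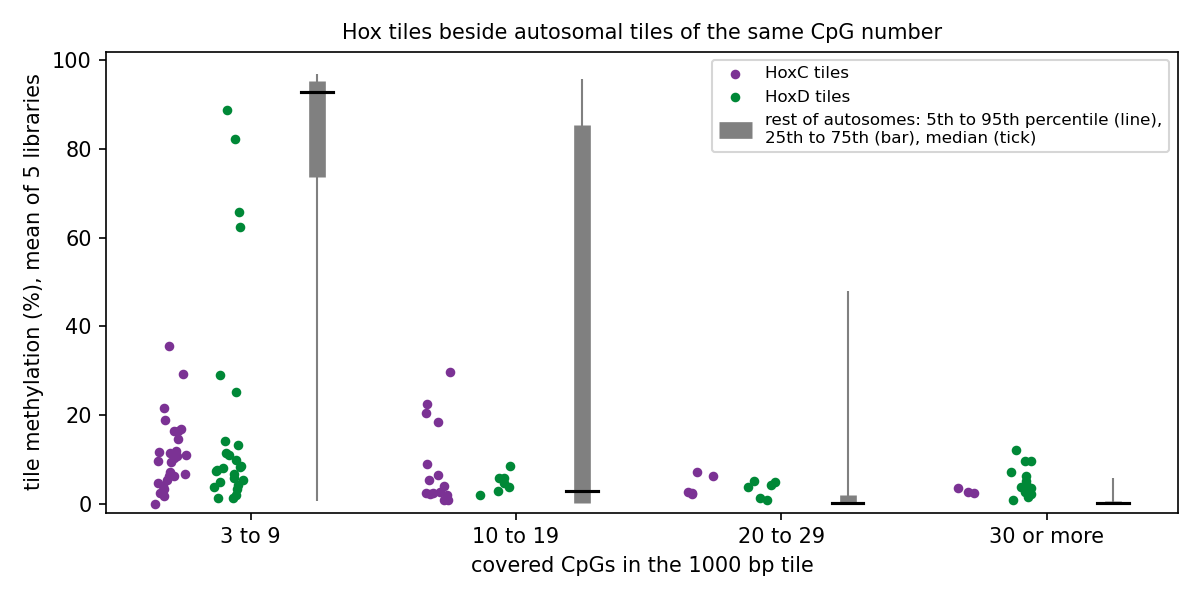
Methylation of 1000 bp tiles, in percent as the mean over the CpGs of a tile and over the 5 libraries, by the number of covered CpGs in the tile. Points are single HoxC and HoxD tiles, and the grey marks give the 5th to 95th percentile (line), the 25th to 75th percentile (bar) and the median (tick) of all other autosomal tiles. In the class of 3 to 9 CpGs most cluster tiles lie far under the autosomal median of 92.9%, and in the class of 30 or more they lie above the autosomal median of 0.154%.

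The sequence around the windows was methylated to different degrees. In the 100 kb below the HoxC window, beyond Hoxc13, the mean was 82.4% over 13 CpGs, and in the 100 kb above it 21.6% over 91 CpGs. Around HoxD the means were 21.9% over 30 CpGs below the window and 9.76% over 26 CpGs above it. Few CpGs were covered there, so the HoxC border at the Hoxc13 side was seen as a large step resting on 13 CpGs.

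The design sets targeted against wild-type LSK cells, to ask what the targeted gene does to CpG methylation there. In HoxC the mean level was 7.64 ± 0.754% in the targeted libraries (SD, n = 2) and 7.22 ± 0.0611% in the wild-type libraries (SD, n = 3), a difference of 0.415 points and an exact permutation p of 0.5 (two-sided). The groups overlapped, and without targeted library 1 the difference was -0.118 points. In HoxD it was 6.70 ± 0.441% in the targeted libraries and 6.24 ± 0.136% in the wild-type libraries, a difference of 0.459 points with an exact permutation p of 0.1, the smallest possible. The HoxD groups did not overlap, but targeted library 2 was only just above the highest wild-type library, and the difference was 0.147 points without targeted library 1 and 0.771 points without targeted library 2. The rest of the autosomes gave a difference of 0.550 points, larger than that of either window, again with no overlap of the groups. That difference was 0.196 points without targeted library 1. With targeted library 2 left out instead, HoxC had the larger one, at 0.949 points, against 0.904 on the rest. Weighting CpGs by reads gave 0.695 points in HoxC, 1.01 in HoxD and 4.89 on the rest of the autosomes. Without targeted library 1 these were -0.189, 0.179 and -1.48 points.

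The excess of targeted library 1 over wild type was set beside that elsewhere by level class. At CpGs of 20 to 80% it lay 2.05 points above the wild-type mean in HoxC and 2.55 points above it in HoxD, against 6.51 points on the rest of the autosomes. At 0 to 5%, the class of most member CpGs, the order in points was the other way, with 0.336 points in HoxC and 0.210 in HoxD, against 0.0904 on the rest. The wild-type means in this class also differed, at 1.77% in HoxC and 1.78% in HoxD, against 0.413% on the rest. At 80 to 100% targeted library 1 lay 2.59 points above the wild-type mean over 12 HoxD CpGs, against 0.954 on the rest. The wild-type means there were 86.9% in HoxD and 93.8% on the rest. At 20 to 80%, targeted library 2 minus the wild-type mean was -1.43 points in HoxC and 1.59 points in HoxD. In that class the wild-type mean was 31.4% in HoxC, 38.1% in HoxD and 51.8% on the rest of the autosomes, so the CpGs compared were not of the same level. No test was made of these differences, and targeted library 1 is a single library.

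No tile and no CpG of the windows passed the test for a group difference. The test was edgeR's quasi-likelihood test over all autosomes, and a call needed an adjusted p (Benjamini-Hochberg) under 0.05 and a difference of at least 10 points for a tile or 25 points for a CpG. Of 90338 autosomal tiles tested, 15 were called, 0.0166%, and 0 of 49 tiles tested in HoxC and 0 of 52 in HoxD. Of 756719 CpGs, 67 were called, 0.00885%, and 0 of 594 in HoxC and 0 of 987 in HoxD. At background shares this low, 0 calls in the windows does not set them apart. The lowest adjusted p was 0.788 among the tiles of each window, and 0.876 and 0.536 among the CpGs of HoxC and HoxD. The limma test on log2 ratios called none either.

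At an unadjusted p under 0.05, 4 HoxC tiles were higher and 0 lower in the targeted libraries, and 2 HoxD tiles were higher and 1 lower. Across the autosomes 5.35% of tiles were higher and 0.975% lower at that threshold. Among CpGs, 9 were higher and 3 lower in HoxC, and 20 higher and 8 lower in HoxD, against 2.29% higher and 0.678% lower of all CpGs tested. By limma, 3 HoxC and 2 HoxD tiles, and 28 HoxC and 41 HoxD CpGs, had an unadjusted p under 0.05, beside 6.48% of all tiles and 5.24% of all CpGs tested. The targeted libraries exceeded every wild-type library in 8 of 50 HoxC tiles and 13 of 52 HoxD tiles, beside 17.1% of all autosomal tiles. They lay below in 2 HoxC and 3 HoxD tiles, beside 5.21%. For CpGs the counts above were 70 of 618 in HoxC and 122 of 1049 in HoxD, 11.3 and 11.6%, beside 7.77%. Below were 44 and 76, 7.12 and 7.25%, beside 3.67%. CpGs fully methylated or fully unmethylated in all libraries can count neither way. These were 272488 of 1027626 on the rest of the autosomes, against 24 in HoxC and 62 in HoxD, so the CpG shares are not directly comparable. The median tile difference was 0.32 points in HoxC and 0.54 in HoxD, and 0.28 on the rest of the autosomes.

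Among HoxC tiles, the smallest unadjusted p belonged to chr15:102776001-102777000. Its 9 CpGs had 29.3 and 17.6% in the targeted libraries, against 12.6, 16.6 and 8.22% in the wild-type libraries. Over pooled reads the targeted libraries lay above all wild-type ones, by 11 points on average, with an adjusted p of 0.788 by edgeR's quasi-likelihood test. Without targeted library 1 the difference was 5.18 points. This tile holds chr15:102776710, which read 66.2 and 59.2% in the targeted libraries, against 45.9, 53.9 and 37.1% in the wild-type libraries. That CpG gave 136 of 358 and 130 of 510 tile reads in the targeted libraries. In the wild-type libraries it gave 133 of 572, 165 of 615 and 89 of 657. The pooled level therefore also depends on this uneven share of reads. With its 9 CpGs weighted equally, the tile's mean over the 5 libraries was 9.53%, against 16.9% over pooled reads. At the other CpGs of the tile no library read above 26.7%. The group difference with equal weights is not given here, so the 11 points hold for pooled reads only. The other 2 HoxC tiles with the smallest p were low throughout. The tile chr15:102787001-102788000 had 2.28 and 2.28% in the targeted libraries, against 0.882, 1.41 and 0.702% in the wild-type libraries. The tile chr15:102757001-102758000 had 5.84 and 4.85% in the targeted libraries, against 2.29, 2.85 and 4.06% in the wild-type libraries.

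In HoxD the 3 tiles with the smallest p differed by less than 3 points each. The tile chr2:74528001-74529000, before the Hoxd10 start, had 1.25 and 2.63% in the targeted libraries, against 0.891, 0.588 and 0.443% in the wild-type libraries. The tile chr2:74590001-74591000, before the Hoxd1 start, had 3.59 and 2.52% in the targeted libraries, against 1.22, 2.14 and 1.54% in the wild-type libraries. Only chr2:74576001-74577000 was lower, with 5.85 and 3.86% in the targeted libraries, against 7.10, 8.37 and 7.60% in the wild-type libraries. None of the 3 passed adjustment.

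The CpGs with the largest group differences were mostly thinly covered or rested on a single library. At chr2:74493825, on the outer side of Hoxd13, the merged level was 14.5 and 10.8% in the targeted libraries, against 28.4, 24.2 and 31.6% in the wild-type libraries, with an adjusted p of 0.876 by edgeR. The reverse strand read higher than the forward strand in every library, but the targeted libraries were lower on each strand. On the forward strand they had 9.09 and 8.89%, against 20.7, 15.7 and 21.6% in the wild-type libraries. On the reverse strand they had 28.6 and 19%, against 47.8, 41.9 and 50.0%, from 20 to 43 reads per library. In HoxC, chr15:102770223 had 0 and 10% in the targeted libraries, against 20, 18.8 and 22.2% in the wild-type libraries, from 10 to 27 reads. The 0 came from 14 reads, which allows a level of up to 21.4%.

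The 3 other CpGs named by the size of their difference, besides chr15:102776710 above, did not separate the groups. At chr15:102866386, targeted library 1 read 60.6% and targeted library 2 18.9%, against 20.5, 25.3 and 13.6% in the wild-type libraries. At chr2:74601758, 721 bases after the Hoxd1 start, targeted library 1 read 20% and targeted library 2 50.0%, against 11.8, 23.5 and 26.7% in the wild-type libraries. Its neighbour chr2:74601773, covered by the same number of reads, read 0 and 28.6% in the targeted libraries and 0 in each wild-type library. With 15 to 17 reads in the libraries at 0, levels of up to 17.6 to 20% are allowed there.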

How the data were processed

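Per the labels' protocols, MspI, which cuts at CCGG, was used on the DNA, and fragments of 150 to 400 bp were kept, treated with bisulfite and read from 1 end over 50 bp. Bisulfite leaves methylated C and turns unmethylated C into a base read as T, so a C-to-T difference in the genome reads as unmethylated, and CpG-poor sequence is mostly unmeasured. The submitters' processing notes name Bismark (version: not given in the sources used here) and mm9 (NCBIM37). The authors' deposited tables give, per the file headers, the coverage count of each CpG cytosine by strand, at least 10, and the percent of it read as C and as T. The lowest sum of the deposited C and T percent values was 90.0%. The tables held between 1354420 and 1473602 entries and a summed coverage of 122015958 to 151634492 per library.

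Methylated and unmethylated reads were recovered as coverage times percent, which came within 0.01 of a whole number for 99.97% of entries. Strands were merged, and the highest 0.1% of coverage per library was left out, which removed no member CpG. Window means were compared by an exact permutation test over the 10 ways to draw 2 of 5 libraries. Single CpGs, and 1000 bp tiles holding 3 or more of them, were tested with edgeR 4.0.16 (R 4.3.3) on the read counts, with a factor per library and a common dispersion, over all autosomes. Left untested were units fully methylated or fully unmethylated in all libraries (1 HoxC tile, and 24 HoxC and 62 HoxD CpGs). On simulated data the fit called most changed tiles where the spread followed its own model, and none where the spread was beta-binomial, so the absence of a call does not show that a unit was alike in both groups. One read can count at several CpGs of a tile, and reads carry no molecular identifiers, so limits at a count of 0, set at 3 reads, cover counting error only. Tiles and CpGs were named by rule: per cluster the 3 highest tiles, the 3 tiles with the smallest p, the 3 CpGs with the largest difference, the 3 longest runs and every placed promoter. Other CpGs and tiles printed were chosen after their values were seen. Promoter sequences are from RefSeq, and no coordinate was converted between builds. The alternatives tried were no upper limit, a coverage minimum of 20, other weights, tile sizes and CpG minimums, runs under 10% or with shorter gaps, limma 3.58.1 with 1 read added, each library left out and the replicate number as a block. The windows, lists and tests were chosen with earlier results of these data known. The targeted gene is not reported here.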

Additional observations from a re-analysis of the deposited data

How the results depend on the processing

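The count of called units in the windows was 0 under every alternative run. Across all autosomes the count of called tiles was 15 and moved to 0 with limma, to 4 with at least 5 CpGs per tile, and to 23 with the replicate number as a block, 4 higher and 19 lower. Leaving out 1 library at a time gave 2 to 18 tiles, the lowest without targeted library 1, and 52 to 77 CpGs. Called CpGs, 67 at first, were 37 with limma. The HoxC difference turned to -0.118 points without targeted library 1, and its leave-one-out values ran from -0.118 to 0.949; with CpGs weighted by reads and without that library, an alternative added after seeing the data, it was -0.189. HoxC minus HoxD turned to -2.57 points with equal tile weights. The HoxD difference kept its sign throughout, at 0.147 to 0.771 points when 1 library was left out, and its p was 0.2 at a coverage minimum of 20. The difference from the rest of the autosomes ran from -37.6 to -35.3 points. The relaxed match placed 8 promoters, against 5. Of 163 alternatives for the 18 named tiles and CpGs, 155 kept the direction and none passed adjustment. The 8 that turned all left out 1 library. The difference of the tile at 102799001 ran from -4.54 to 1.72 (1.72 without targeted library 1, 0.16 without wild-type library 1), and that of the tile at 74567001 from -1.84 to 1.41 (-0.36 without targeted library 1, -1.84 without wild-type library 3). The tiles at 102841001 and 102846001 ran from -4.95 to 0.43 and from -3.94 to 0.50, both highest without targeted library 2. The CpG at 102866386 ran from -0.90 without targeted library 1 to 40.8, and that at 74601758 from -0.65 without targeted library 2 to 29.3. The causes were not tested.

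The replicate numbers are shared by both groups, but nothing says that they pair libraries: over the autosomal tiles, deviations from the group means correlated at r = 0.00101 between the libraries numbered 1 and 0.0662 between those numbered 2. With the replicate block the HoxC difference was 0.390 points and the HoxD difference 0.384 points. With 2 against 3 libraries no window mean can reach an exact p under 0.1, so the data do not show that the groups are alike.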
